A study of Drosophila melanogaster with 2 samples.

Results

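The 10 genes examined here are wg, fz, fz2, arr, dsh, arm, pan, Axn, sgg and nkd, which encode the core of the Wingless signalling pathway of Drosophila melanogaster, from the secreted ligand to the DNA-binding factor. They were found by gene name in the BDGP6.54 annotation, where they are 10 of 13945 protein-coding genes on the chromosome arms. Their regions are all those whose summit lies in the gene body or within 10 kb of it, which gave 75 of the 8399 regions of the list described below. The occupancy of the protein CG10631 was profiled by chromatin immunoprecipitation followed by sequencing (ChIP-seq) in 2 biological replicates, numbered 2 and 3. Both came from a single transgenic line in which CG10631 carries green fluorescent protein at its C-terminus, and an antibody to that tag was used. The starting material was whole animals at the white prepupa stage, the stage that opens metamorphosis, and their sex was not recorded. The sources used here do not give the number of animals pooled or what drives the fusion gene. There was a single group and no second condition, so every value below is a description and no test was made.

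The 4 region lists used here are on the genome build dm6, and in each a region has a summit, the point of highest signal, and a signal in the peak caller's own units. Each replicate has a list of 30000 regions, and a merged list of 30000 regions was derived from both. A list of 8399 regions, deposited as thresholded by the irreproducible discovery rate (IDR) of the replicates, is called the IDR list here. The merged list is labelled as peaks and background that served as input for the IDR. Its regions below the IDR list can thus be background and are not counted as occupancy here. The signal is the authors' value per peak and serves here only to rank and describe regions within a list, rank 1 being the strongest. Signals and ranks are those of the merged list unless a replicate is named. The IDR regions are the 8399 strongest of that list, so a rank means the same in both, and a single IDR region need not be present in each replicate. Whole animals mix all tissues, so a strong signal in a few cells and a weak signal in many cannot be told apart. Control libraries were not analysed here, and what part of the signal an untagged animal would give was not tested.

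Wingless is a secreted signal of the Wnt family that patterns the embryonic segments and the imaginal discs, whose descendants form the adult wings and legs during metamorphosis. It binds a Frizzled receptor together with the coreceptor Arrow, and Dishevelled passes the signal on. Without the signal a complex built on Axin, which includes the kinase Shaggy, marks Armadillo (beta-catenin) for destruction. With the signal Armadillo accumulates and enters the nucleus, where it acts with Pangolin, the fly TCF, which otherwise keeps target genes repressed. Naked cuticle is made in response to the signal and dampens it by binding Dishevelled.

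The summits of the strongest regions are shown to let the base composition described below be seen. Each sequence is the summit base with 50 bases on either side, from the plus strand of the dm6 assembly in RefSeq. Capitals mark matches on either strand to TATAAA, which holds the core of a TATA box, or to CTTTGAT, the core site of Pangolin, which reads ATCAAAG on the opposite strand. Other motifs searched had no match in these windows. The strongest arr region, whose rank lies between those of dsh and wg, is not printed here. The region at the nkd start site was added after the values had been seen.
fz, strongest region, chr3L:14272547-14272647: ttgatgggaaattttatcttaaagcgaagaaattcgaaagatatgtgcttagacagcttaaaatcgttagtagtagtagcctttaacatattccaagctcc
fz2, strongest region, chr3L:19194221-19194321: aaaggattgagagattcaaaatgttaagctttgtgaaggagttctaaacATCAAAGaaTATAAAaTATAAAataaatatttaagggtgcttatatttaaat
nkd, strongest region, chr3L:19042623-19042723: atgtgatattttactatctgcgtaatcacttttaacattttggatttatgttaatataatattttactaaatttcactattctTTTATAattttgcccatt
sgg, strongest region, chrX:2646406-2646506: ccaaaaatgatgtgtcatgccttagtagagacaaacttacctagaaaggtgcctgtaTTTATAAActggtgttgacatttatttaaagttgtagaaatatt
dsh, strongest region, chrX:11351470-11351570: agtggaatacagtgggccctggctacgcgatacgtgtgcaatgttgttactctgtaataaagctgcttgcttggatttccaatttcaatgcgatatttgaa
wg, strongest region, chr2L:7313588-7313688: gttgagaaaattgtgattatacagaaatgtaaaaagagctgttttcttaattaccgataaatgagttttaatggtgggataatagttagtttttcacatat
nkd, region at the start site, chr3L:19045584-19045684: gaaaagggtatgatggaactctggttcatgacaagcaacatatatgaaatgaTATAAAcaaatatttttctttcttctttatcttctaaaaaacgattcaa
The GC content of these windows ran from 20.8% in the strongest nkd region to 42.6% in the dsh region. A match to CTTTGAT stood in the fz2 window only, 2 matches to TATAAA stood beside it, and the sgg window held 2 overlapping matches to TATAAA, 1 on each strand.

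Occupancy was found at or near every one of the 10 genes, and it was uneven. The receptor genes fz and fz2, the coreceptor gene arr and the feedback inhibitor nkd together held 59 of the 75 IDR regions (78.7%), with 18 at fz, 14 each at arr and nkd and 13 at fz2. The ligand gene wg had 5, sgg 4, pan 3, arm 2, and dsh and Axn 1 each. Having an IDR summit in this wide window was common: 67.7% of all protein-coding genes had one, and 83.6% of the 810 that are over 25 kb long. The 10 of 10 genes here include 6 of that length (fz, fz2, arr, pan, sgg and nkd), so the count is to be read against both shares. The median number of IDR summits was 4.5 over the 10 genes, 1 over all protein-coding genes and 3 over the long ones.

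**Figure D1:**
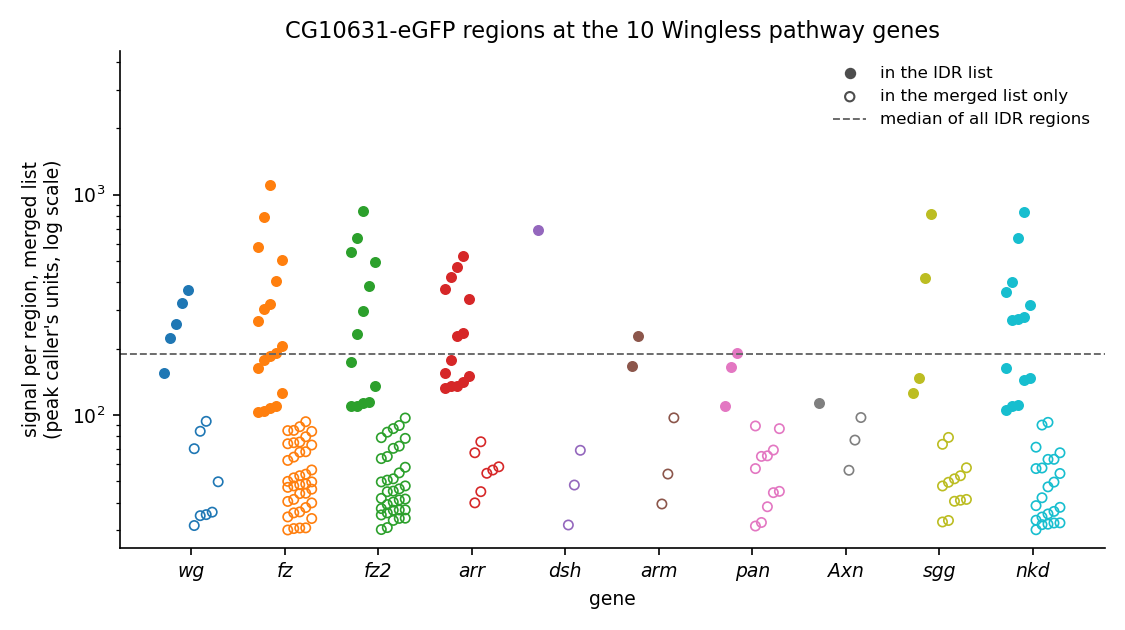
Signal of each region of the merged list (log scale, peak caller's units) at the 10 genes. Filled points are in the IDR list, open points are in the merged list only, and the dashed line is the median of all IDR regions (190.1). Open points can include background. The strongest point belongs to fz (1111), and all points of Axn lie below the line.

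The 75 regions were spread over the range of the IDR list, with 41 of them above its median rank and 11 (14.7%) among its 1000 strongest regions, which are 11.9% of the list. Their median signal was 225, beside 190.1 for all IDR regions, whose signals ran from 100.1 to 3942. The merged list held 219 regions at the 10 genes, of which 144 fell below the IDR list, and the replicate lists held 237 and 218. The share of merged regions that belonged to the IDR list was 34.2% at these genes and 28.0% over the genome. Some entries overlap each other: 69 regions were left at the 10 genes after overlapping entries were joined.

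At wg itself (FBgn0284084, 2L, 7307159 to 7316265, plus strand), occupancy lay in the last part of the gene and beyond its end, and not at the start. The gene encodes the Wingless ligand. The strongest of its 5 regions (7313556 to 7313750, rank 1730) was in intron 3 of the single transcript, 6479 bp past the start site. Its signal was 368, with 175 in replicate 2 and 196 in replicate 3 (mean 185 ± 15.2, SD, n = 2). The remaining 4 regions were intergenic, between 3243 and 6900 bp past the end of wg, on the side where the related ligand gene Wnt6 begins at 7333714. The interval between these 2 genes is known to hold imaginal disc enhancers, and whether the 4 regions overlap any was not tested. The start site nearest to each of the 4 was that of the noncoding gene lncRNA:CR45304, 6354 to 10011 bp away. Among the 4, the region at 7321216 to 7321388 (rank 2124, signal 321) had 158 in replicate 2 and 163 in replicate 3 (160.2 ± 3.31, SD, n = 2). Its neighbour at 7322945 to 7323384 (rank 2869, signal 260.0) had 130.2 and 131 (130.5 ± 0.362, SD, n = 2). The region at 7319920 to 7320359 (rank 3443, signal 225) had 92.1 and 123 (108 ± 21.8, SD, n = 2), and the weakest, of rank 5301, had 63.4 and 92.8. Replicate 3 had the higher signal at all 5 regions, but at the regions of ranks 2124 and 2869 the order turned once the median ratio of the replicates over all IDR regions was removed.

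The gene fz (FBgn0001085, 3L, 14274343 to 14368639, plus strand) carried the strongest region of all 10 genes. It encodes Frizzled, a receptor of Wingless that also acts in planar cell polarity. That region (14272377 to 14272825, rank 151) was intergenic, 1746 bp upstream of the only start site of fz, which was also the nearest start site of any gene. Its signal was 1111, with 543 in replicate 2 and 576 in replicate 3 (559.5 ± 23.0, SD, n = 2). Replicate ranks were 159 and 148, so the region stood near the top of both lists.

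Inside fz, 15 regions lay in introns, 5 of them in intron 1 and 10 in intron 4, which both transcripts have. The strongest intronic region (14364805 to 14365072, rank 385, signal 790) lay in intron 4, 90557 bp from the start site, and had 406 and 385 in the replicates (396 ± 15.1, SD, n = 2). Another of intron 4 (14338971 to 14339188, rank 781, signal 577) had 311 and 265 (288 ± 33.0, SD, n = 2). In intron 1 the strongest (14303930 to 14304168, rank 1005, signal 507) had 228 and 283 (255 ± 38.8, SD, n = 2). Replicate 2 was higher at both regions of intron 4 and replicate 3 at the other. A pair of intergenic regions past the end of fz, 6091 and 7907 bp away, had ranks 1453 and 8171. The weakest 8 of the 18 regions had signals under the median of the list, down to 103.

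The second receptor gene, fz2 (FBgn0016797, 3L, 19140975 to 19235373, minus strand), had all of its 13 regions inside the gene and in introns. Its product Frizzled 2 binds Wingless with high affinity. The annotation gives fz2 8 transcripts from 3 start sites, at 0, 64.7 and 88.6 kb along the gene. The strongest region (19194092 to 19194421, rank 327) lay 41102 bp from the first start site and 23623 bp before the second. Its signal was 847, with 383 in replicate 2 and 459 in replicate 3 (421 ± 53.9, SD, n = 2). Around the second start site the regions were closer together, although none was within 500 bp of it. Upstream of that site, at 2609 and 1921 bp, stood the regions of rank 856 (19173144 to 19173373, signal 551, replicates 294 and 274, 284 ± 13.9, SD, n = 2) and rank 1035 (19172349 to 19172788, signal 498). The latter had replicate signals of 248 and 257 (252 ± 6.62, SD, n = 2). Downstream of it, regions of ranks 1588, 3303 and 2369 followed at 2454, 4130 and 7507 bp. The second strongest region of the gene came at 10504 bp (19159988 to 19160231, rank 628, signal 639, replicates 304 and 326, 315 ± 15.9, SD, n = 2). Near the first start site, 2 overlapping entries at 891 and 1093 bp had only ranks 7627 and 6126, and both took the same region of replicate 2.

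The coreceptor gene arr (FBgn0000119, 2R, 13453640 to 13483229, minus strand) was the most densely occupied of the 10. Its product Arrow is the fly LRP5/6 protein. The 14 regions include 12 inside the gene, all in intron 2 of the single transcript, and 2 past its end. Some of them overlap, and 11 were left after overlapping entries were joined. The strongest (13467008 to 13467188, rank 940) lay 16157 bp from the start site, with a signal of 525 and replicate signals of 256 and 265 (261 ± 6.5, SD, n = 2). Also in intron 2, the region at 13472418 to 13472857 (rank 1381, signal 422) had 223 and 199 (211 ± 17.2, SD, n = 2). The region of rank 1986 (signal 335) had its summit 399 bp from the start of CG43192, a gene nested in that intron.

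Both regions past the end of arr lay at a start site inside cnn, a gene downstream that encodes the centrosomal protein Centrosomin. These overlapping entries (13449494 to 13449675, rank 1135, signal 472, and 13449601 to 13450040, rank 1685, signal 374) had summits 211 and 421 bp from a cnn start site, and 33618 and 33408 bp from that of arr. Replicate signals were 245 and 226 for the first (236 ± 13.0, SD, n = 2) and 187 and 176 for the other (182 ± 8.24, SD, n = 2). Replicate 2 was higher at both. Within arr, the region nearest to the start site was 1858 bp into the gene and had rank 6297. In a stretch of 9871 bp there were 7 summits, the highest number within any 10 kb of the 10 genes, beside 6 for nkd and 5 for wg, fz and fz2. The 7 include 2 overlapping entries (13468820 to 13469259 and 13469024 to 13469463), and the 6 of nkd also include an overlapping pair.

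**Figure D2:**
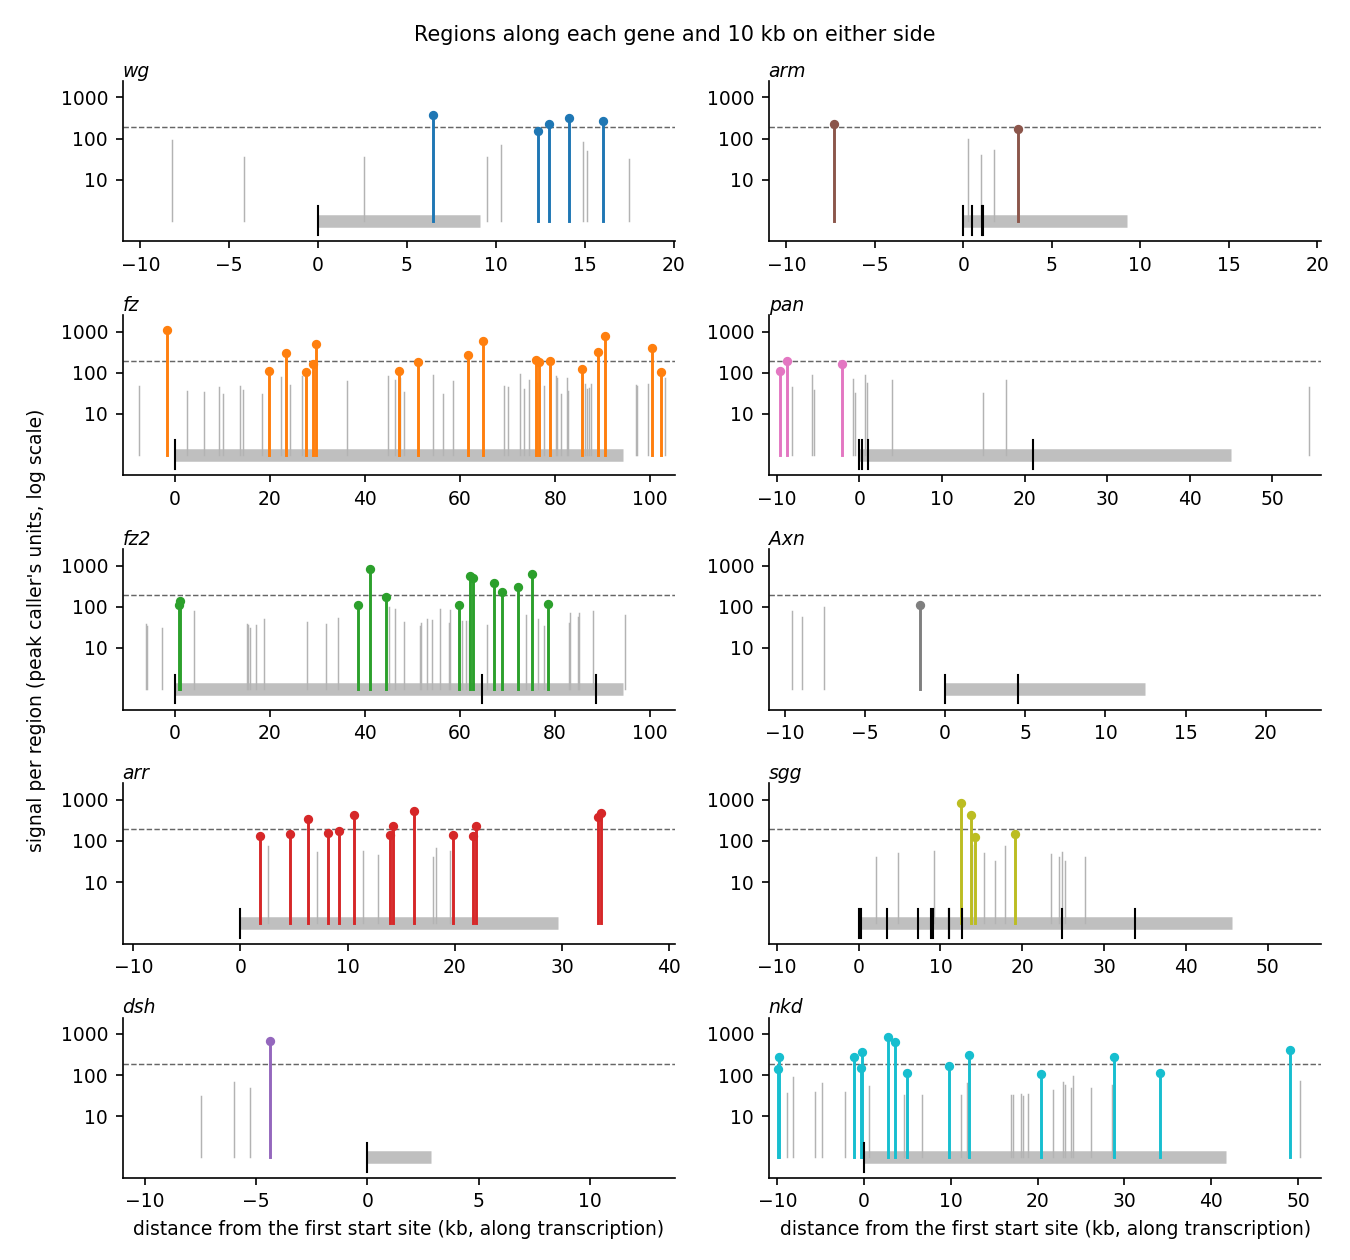
Regions of the merged list along each gene, in kb from its first start site in the direction of transcription, with 10 kb on either side. Coloured stems are IDR regions and grey stems the rest of the merged list, stem height is the signal (log scale, peak caller's units), the grey bar is the gene body, black ticks are start sites and the dashed line is the median IDR signal. IDR regions fill the introns of fz, fz2, arr and nkd, while those of dsh, pan and Axn lie upstream of the gene only.

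The gene dsh (FBgn0000499, X, 11355881 to 11358724, plus strand) had a single IDR region, a strong one, and it lay in another gene. Dishevelled, its product, passes the signal from the receptors to the destruction complex. The region (11351409 to 11351662, rank 530) was 4361 bp upstream of the dsh start site, in an intron of CG1737 and 912 bp from the start of that gene. Its signal was 694, with 312 in replicate 2 and 379 in replicate 3 (345 ± 47.3, SD, n = 2). No region of the merged list had its summit within the dsh gene body, and the strongest other region in the window had a signal of only 69.3.

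Among the genes of the destruction complex, sgg had strong occupancy at an internal start site and Axn had 1 weak region. Shaggy is the fly glycogen synthase kinase 3, and sgg (FBgn0003371, X, 2633952 to 2679553, plus strand) has 19 transcripts from 11 start sites. The strongest region (2646299 to 2646597, rank 356) had its summit 181 bp upstream of the ninth of these, 12504 bp into the gene. Its signal was 821, with 379 in replicate 2 and 442 in replicate 3 (410.4 ± 44.2, SD, n = 2). The next (2647524 to 2647722, rank 1396, signal 420) followed 1003 bp past the same start site, with 198 and 234 (216 ± 25.3, SD, n = 2). A weaker region 1528 bp past it had only rank 6626, and another, 5717 bp upstream of the next start site, rank 5588. Replicate 3 was higher at all 4 regions of sgg.

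Axin is the scaffold of the destruction complex, and Axn (FBgn0026597, 3R, 30022842 to 30035311, plus strand) had the weakest leading region of the 10 genes. The region (30021060 to 30021499, rank 7408, signal 114) lay 1562 bp upstream of the first start site, in an intron of Mgat2, which encodes an enzyme of N-glycan synthesis. Replicate 2 had a signal of 65.4 there, and no region of replicate 3 overlapped it in the list used here. The next region of the Axn window had a signal of 97.5 and rank 8599, just below the IDR list. No IDR summit and no merged summit lay within the Axn gene body.

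Armadillo is the effector of the pathway and also a part of adherens junctions, and arm (FBgn0000117, X, 1891401 to 1900646, minus strand) had 2 regions of middle rank. The stronger (1907753 to 1908192, rank 3355) lay 7327 bp upstream of the first arm start site, and its summit was 6 bp from a start of Edem1 and within 500 bp of a start of mip130. Edem1 acts in the degradation of misfolded proteins of the endoplasmic reticulum and mip130 encodes a subunit of a Myb complex. Its signal was 229, with 111 in replicate 2 and 113 in replicate 3 (112 ± 1.85, SD, n = 2). The region inside arm (1897332 to 1897771, rank 4910, signal 167) lay in intron 2 of all 6 transcripts, 1972 bp past the nearest start site. It had a signal of 103 in replicate 3, and no region of replicate 2 overlapped it in the list used here. At the arm start sites the merged list had 2 weaker regions outside the IDR list, with signals of 97.2 at 191 bp upstream and 39.5 at 14 bp upstream.

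The DNA-binding factor of the pathway, Pangolin, is encoded by pan (FBgn0085432, chromosome 4, 69326 to 114270, plus strand). None of its 3 IDR regions lay in the gene. The strongest (60316 to 60755, rank 4192, signal 190.4) was 8790 bp upstream of the first start site, in an intron of the antisense gene asRNA:CR43957, and had 100.3 and 89.2 in the replicates (94.8 ± 7.80, SD, n = 2). Closer to pan, 2075 bp upstream of it, the region at 67031 to 67470 (rank 4958, signal 165) had 89.0 and 71.2 (80.1 ± 12.6, SD, n = 2). Its summit was 44 bp from the start of RpS3A, a ribosomal protein gene, on the opposite strand. The weakest, of rank 7687, had 58.7 and 53.4. Replicate 2 was higher at each of the 3 regions. Within 500 bp of pan start sites the merged list had 2 regions, with signals of 86.8 and 57.2, both below the IDR list.

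The feedback inhibitor gene nkd (FBgn0002945, 3L, 19003741 to 19045449, minus strand) was occupied at its only start site, upstream of it and through its first intron. The strongest region (19042504 to 19042838, rank 337) lay in intron 1 of all 3 transcripts, 2776 bp past the start site. Its signal was 838, with 403 in replicate 2 and 438 in replicate 3 (420.5 ± 25, SD, n = 2). Next to it, 3613 bp past the start site, the region at 19041616 to 19042055 (rank 640, signal 634) had 294 and 340.45 (317 ± 33.2, SD, n = 2). Replicate 3 was the higher at both.

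At the nkd start site, the region at 19045520 to 19045668 (rank 1783, signal 362) had its summit 185 bp upstream. Replicate 2 had 148 and replicate 3 had 215 (182 ± 47.6, SD, n = 2), a wider gap than at the 2 intronic regions described above. An overlapping entry with its summit 391 bp upstream (19045620 to 19046059, rank 5596, signal 148) had 48.7 and 92.3. Further upstream, regions of ranks 2725, 2597 and 5770 lay 1158, 9757 and 9964 bp from the start site. The last 2 are overlapping entries, and the start site nearest to them was that of CG43407, at 1817 and 2024 bp. Downstream of the gene, 7387 bp past its end, the region at 18996134 to 18996573 (rank 1479, signal 403) lay in an intron of CG18135, 545 bp from a start site of that gene, and had 193 and 208 (201 ± 10.8, SD, n = 2). The other 6 regions in the gene body had ranks from 2168 to 8018.

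An IDR summit within 500 bp of a start site of the gene itself was found at 2 of the 10 genes, sgg and nkd. The same was found at 19.4% of all protein-coding genes and at 32.2% of those over 25 kb long, so the count is near the background. In the merged list 4 of the 10 genes had such a summit, with arm and pan added, and the merged list had 5 such regions at sgg. The merged list is longer, and its share over all protein-coding genes was not counted. These merged counts therefore have no background here and are not comparable with the shares above. For the remaining 8 genes the nearest IDR summit lay between 891 bp (fz2) and 6479 bp (wg) from a start site of the gene. Of the 75 regions, 62 were over 2 kb from the nearest start site of the gene they were assigned to, and the median distance was 10.6 kb. The nearest start site of any gene was that of the assigned gene for 26 regions, of another protein-coding gene for 34 and of a noncoding gene for 15. Assignment to a gene is therefore by position alone.

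The other genes of the pathway were taken from a list of 43, grouped by role. An IDR summit lay within 500 bp of a start site at 17 of the 43 (39.5%). The share was 19.4% over all protein-coding genes and 32.2% over those longer than 25 kb. By role the counts were 9 of 10 cytoplasmic regulators, 4 of 6 nuclear cofactors, 2 of 6 further receptors, 1 of 6 ligands, 1 of 6 genes for ligand processing and release, and 0 of 9 target genes. Every target gene, a list that holds Dll, vg, sens, en, slp1, slp2, ac, Ubx and lab, still had an IDR summit in the wider window of 10 kb on either side. Of all 43 genes, 40 did, with a median of 3 summits, beside 67.7% of all protein-coding genes and their median of 1. Genes over 25 kb long had 83.6% and a median of 3, and the 43 genes were not matched for length. Some windows share regions: slp1 and slp2 had the same strongest region (rank 4336), as did Wnt6 and Wnt10 (rank 457).

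Among the start sites of the cytoplasmic regulators the strongest was that of gish, which encodes a casein kinase 1 gamma, with a region 159 bp upstream of a start site (3R, 16280527 to 16280923, rank 40, signal 1769.6, replicates 901 and 872, 887 ± 20.1, SD, n = 2). That is stronger than any region of the 10 core genes. Apc2, a scaffold of the destruction complex, had a region 146 bp upstream of its start (3R, 24163600 to 24164039, rank 2615, signal 277, replicates 141 and 141, 141 ± 0.280, SD, n = 2), where a start site of mRpS24 also lay within 500 bp. Its paralog Apc had rank 4342 (signal 185, replicates 100.7 and 86.6, 93.6 ± 9.96, SD, n = 2), shared with the start of spg. The phosphatase subunit genes mts and wdb had ranks 3126 and 4807 (signals 243 and 169.8), and slmb, whose product binds phosphorylated Armadillo for degradation, had rank 4731 (signal 172). The mts and slmb regions also lay within 500 bp of starts of Rack1 and CG5793. At the remaining 3 genes of this group with such a region the signals were between 145 and 167. The weakest of these, at Tnks, also lay within 500 bp of a start of RASSF8.

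In the nucleus, the corepressor gene gro had the strongest region within 500 bp of a start site in its group, 152 bp upstream (3R, 26042352 to 26042659, rank 212, signal 988), with 489.5 and 495 in the replicates (492 ± 3.81, SD, n = 2). Legless, an adaptor that joins Armadillo to Pygopus, is encoded by lgs, whose region (chromosome 4, 443860 to 444299, rank 3764, signal 208) had 109.9 and 89.0 (99.4 ± 14.8, SD, n = 2). The coactivator gene nej had rank 4353 (signal 185) and hyx rank 8326 (signal 101.2). Among the receptors, fz3 had rank 1970 (signal 336, replicates 189 and 145, 167 ± 31.4, SD, n = 2) and dnt rank 7470 (signal 113). The glypican gene dlp had rank 1383 at a start shared with RecQ5 (signal 422, replicates 199 and 220.2, 209.7 ± 14.8, SD, n = 2). Of the ligands only Wnt6 was counted, by a region 405 bp upstream of its start (rank 5046, signal 163, replicates 76.0 and 83.0, 79.5 ± 4.97, SD, n = 2).

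Since the 10 genes differ widely in length, the summits were also counted per 100 kb of gene body and flanks. The 584 kb of these windows held 12.8 IDR summits per 100 kb, beside 6.50 over the whole of the arms. The median over the 10 genes was 9.10, beside 4.69 over all protein-coding genes and 5.23 over the long ones. Overlapping entries were counted separately in these densities. The densest was arr with 28.2 per 100 kb, where its arm 2R has 5.44. On 3L, which has 6.93, nkd had 22.7, fz 15.7 and fz2 11.4. The ligand gene wg had 17.2 and its arm 2L 6.70. On X, which has 6.97, arm had 6.84, sgg 6.10 and dsh 4.38. On chromosome 4, which has 2.68, pan had 4.62. The lowest was Axn with 3.08, on an arm (3R) with 6.61. The genes thus fell on both sides of their arm's density. Above it were wg, fz, fz2, arr, nkd and pan, and below it dsh, arm, sgg and Axn. The density of an arm covers the whole arm and not gene windows. Against the gene-window medians of 4.69 and 5.23, arm and sgg were above and pan below, while the other genes kept their side.

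**Figure D3:**
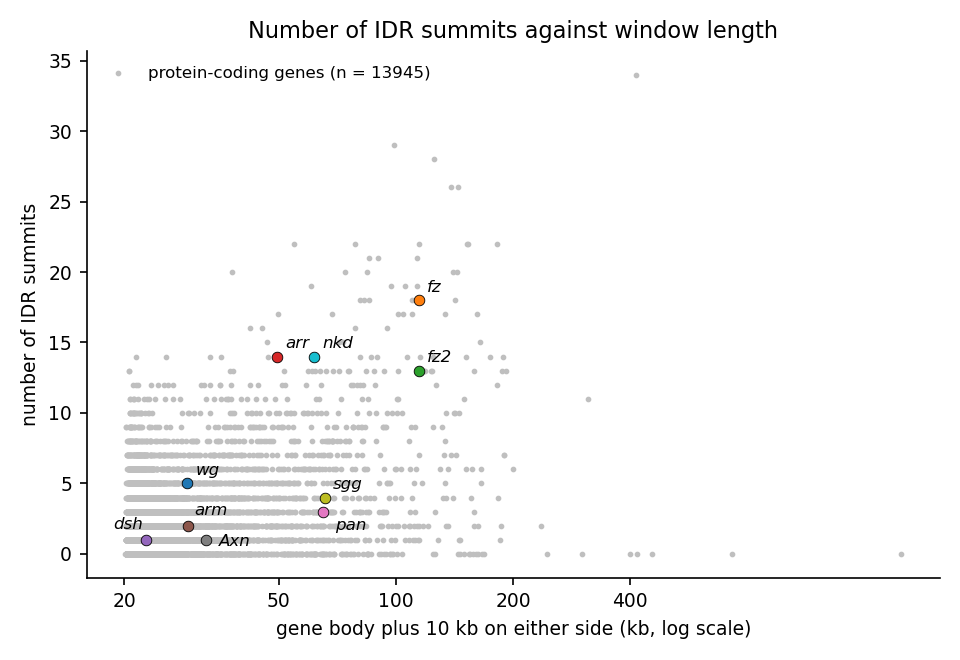
Number of IDR summits in the gene body and 10 kb on either side against the length of that window (kb, log scale), for 13945 protein-coding genes in grey and the 10 genes in colour. At windows of 114 kb fz had 18 summits and fz2 13, while arr and nkd had 14 each in windows of 49.6 and 61.7 kb.

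Most of the regions lay in introns. Of the 75 summits 56 were intronic (74.7%, Wilson 95% interval 63.8 to 83.1%), against 45.8% of all IDR summits, and 10 were intergenic (13.3%, 7.41 to 22.8%), against 20.6%. Start sites of any gene held 8 (10.7%, 5.50 to 19.7%), against 31.2% of all IDR summits. Of these, 3 were at starts of sgg or nkd and 5 at starts of other genes. A single summit of nkd fell in another exon, that of the noncoding gene lncRNA:CR45940, which lies within nkd. In the lists used here none of the 75 lay in coding sequence or a UTR outside start sites, which allows a share of up to 4.0% for each class, and coding sequence held only 10 of all 8399. Whether the lists used here are complete is not known, so that 0 and the class shares hold for these lists only. At these genes 66.7% of summits were over 2 kb away from all annotated start sites, beside 44.9% in the whole list. Long introns fill much of fz, fz2, arr and nkd, and the share of intron in the windows was not matched in this comparison. Intervals cover counting error only, and neighbouring regions of 1 gene are not independent.

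The DNA under the summits was poor in G and C. Within 100 bp of the summit the median GC content was 32.3% (range 16.9 to 46.8%), beside 43.5% in windows of the same length 500 bp to either side. The median of the difference was -9.95 percentage points, and -10.4 over all IDR regions. The summit was below its flanks in 67 of the 75 regions (89.3%), and in 86.8% of all. The lowest value, 16.9%, belonged to the weakest pan region and the highest, 46.8%, to the weakest sgg region. The stretch low in GC was narrow: in windows of 21 bp the mean was 28.4% at the summit and 43.3% at 160 bp to the right of it on the plus strand.

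**Figure D4:**
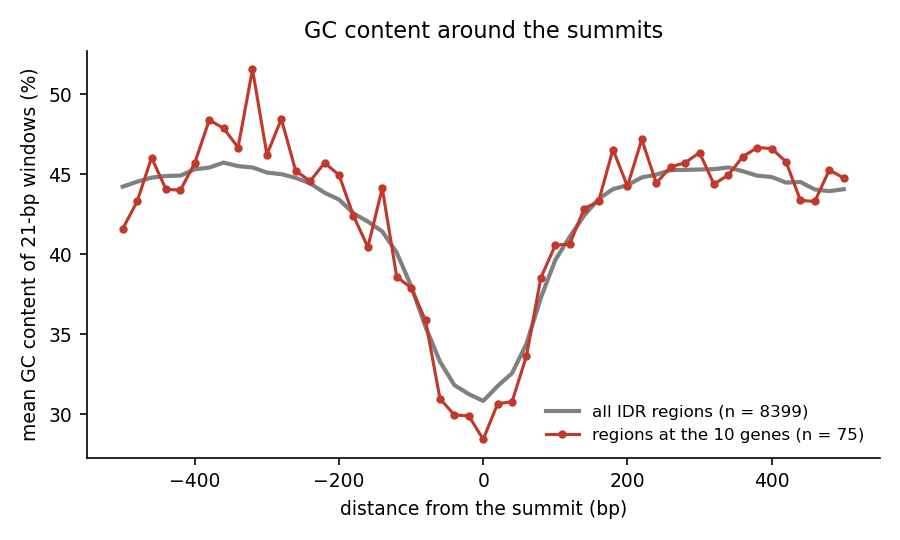
Mean GC content (%) of 21-bp windows against distance from the summit (bp) for the 75 regions of the 10 genes and for all 8399 IDR regions. Both lines dip at the summit, to 28.4% and 30.8%.

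Short motifs were counted on both strands within 100 bp of the summit and in the 150 flank windows, 2 for each region. These counts, and those of the Pangolin sites below, were not adjusted for base composition. Summit windows had a median GC content of 32.3% and flanks 43.5%, and what share of a motif's difference this makes was not tested. TATAAA was found in 36 of the 75 summit windows (48.0%, Wilson 95% interval 37.1 to 59.1%) and in 20.7% of the flanks, with 40.3% and 18.5% over all IDR regions. CAGTGC, a 6-mer known beforehand from these same data, was found in 16 (21.3%, 13.6 to 31.9%) and in 11.3% of the flanks, with 18.1% and 9.71% over all. The 16 regions belonged to 6 of the 10 genes. The shares at the 10 genes were thus close to those of the whole list in both windows.

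Matches to sites of the pathway's own factor were few. CTTTGAT, the core bound by Pangolin, was found in 6 windows (8.0%, 3.72 to 16.4%) and in 2.67% of the flanks, with 4.04% and 3.17% over all. These are the strongest regions of fz2 and sgg (in sgg beyond the bases printed above), the only region of Axn, and weak regions of fz (rank 6644) and nkd (ranks 5770 and 7536). GCCGCC, the core of the helper site of Pangolin, was in 0 of 75 summit windows, which allows up to 4.0%, and in 14.0% of the flanks, with 3.17% and 11.8% over all. TATCGATA, the core of the site known as DRE, was in 0 of 75 and in 1.71% of all IDR regions. These counts describe letters in the sequence and not bound sites.

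The replicates gave like values at nearly all of these regions. Both replicate lists had an overlapping region at 73 of the 75 (97.3%), beside 99.0% of all IDR regions, and the exceptions were the arm region of rank 4910 and the Axn region described above. The IDR list is itself derived from these replicates. The median ratio of replicate 3 to replicate 2 was 1.05. After its removal, the median absolute difference between replicates was 0.16 on the log2 scale, beside 0.20 for all IDR regions. The difference exceeded 1.5-fold at 6 regions (8.22%, beside 11.5% of all), and all 6 were of rank 5596 or weaker. They were 2 of fz and 1 each of fz2, arr, sgg and nkd. The widest was 3.25-fold, at the fz region of rank 8070, with 62.5 in replicate 2 and 20.1 in replicate 3. Summits of the replicates were a median of 15 bp apart (19 bp over all IDR regions) and at most 172 bp, at the overlapping fz2 entries. Replicate 3 was the higher at 33 of the 73 regions after the median ratio had been removed.

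**Figure D5:**
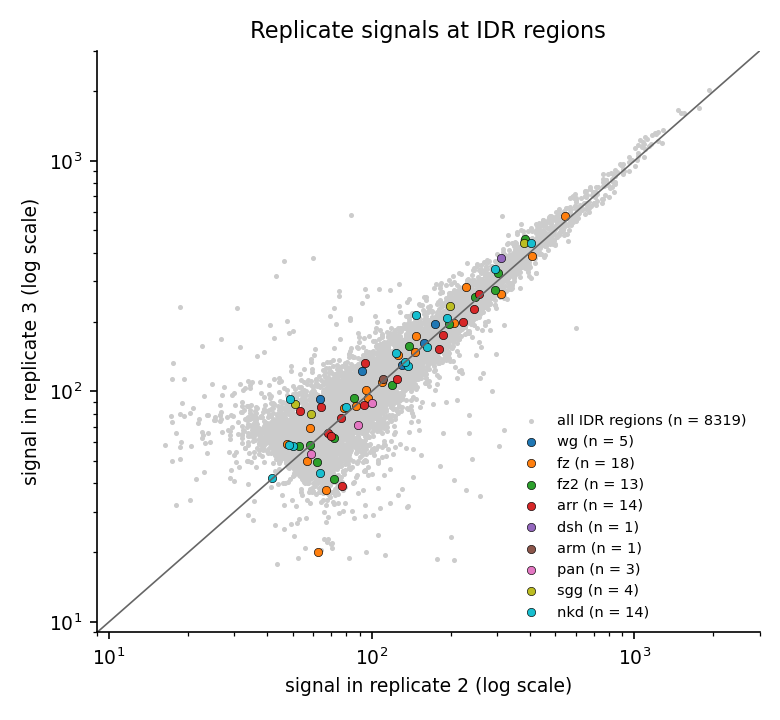
Signal in replicate 3 against replicate 2 (both log scale, peak caller's units) at IDR regions found in both lists, with all 8319 in grey and the 73 of the 10 genes in colour. The line marks equal signals. Among the coloured points, the one farthest below it is the fz region with 62.5 and 20.1, and some grey points lie farther away.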

How the data were processed

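ChIP-seq of CG10631 tagged with green fluorescent protein was done on whole white prepupae in 2 replicates, per the labels. The authors deposited region lists on dm6 and dm3, and the 4 dm6 lists were used. Positions on dm3 were not used here, since builds are not converted. Signal is the peak caller's value per region as deposited by the authors, and a further deposited number gives the summit as an offset in bases. The replicate lists were made from 1 replicate each and the merged list from both, with a control file, per the descriptions that accompany the deposited lists. The sources used here do not name the aligner, the peak caller or the thresholds applied, and read depth is unknown.

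Regions were ranked by signal, placed on the BDGP6.54 annotation (Ensembl 115, without transposable elements) by summit, and matched between lists by an overlap of at least 1 bp. All positions are 1-based dm6 positions, and sequence came from the RefSeq copy of that assembly. A start site window is 500 bp to either side, and classes were given in the order start site, 5' UTR, coding sequence, 3' UTR, other exon, intron and intergenic. Python 3.11.15, numpy 2.4.6, scipy 1.17.1 and matplotlib 3.10.9 were used. Placement was tested on simulated summits. Shares have Wilson 95% intervals, and a count of 0 allows up to 3 counts, both covering counting error only.

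The genes, lists and motifs were chosen with earlier results of these data known. Each gene's strongest region is described in full, with up to 3 more that exceed the median IDR signal. Up to 6 genes by rank per wider list are named, some of them by rank and signal only. Weaker regions of wg, arm, pan and nkd, the regions at other genes' starts, the host genes and the nearest genes beyond 500 bp were named after their values were seen. Alternatives were other windows and overlap rules, joined overlapping entries, the 4200 strongest IDR regions, and the 8399 strongest regions of 1 replicate in place of the IDR list. Leaving out fz, and the CAGTGC count with 1 entry per run of overlapping entries, were added later.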

Additional observations from a re-analysis of the deposited data

How the results depend on the processing

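Of 46 alternative values, 32 stayed within the spread or within 1.5 times the count reported, 14 moved and 0 reversed. No paired analysis was possible because there is 1 group of samples. The cause of each shift was not tested unless the setting itself leaves out regions.

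With the 4200 strongest IDR regions only, which leaves out the weaker ones, the 75 regions became 41, the density 7.02 per 100 kb, the wider genes with a summit at a start site 7, the GC difference -11.4 percentage points and the regions with CAGTGC 7. The 10 genes with a region became 9 without Axn. In the gene body alone the density was 14.1 and 7 genes kept a region, with dsh, pan and Axn lost, and within 20 kb the density was 11.3. For these settings and those below, the shares of all protein-coding genes were not counted. The counts of genes under them therefore have no background. A start site window of 250 bp left 11 of the 43 wider genes, and one of 1000 bp gave 18. Windows of 50 bp on either side of the summit gave a GC difference of -12.4 and 9 regions with CAGTGC. Flanks 1000 bp away gave a GC difference of -8.96.

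Using the strongest regions of 1 replicate alone gave 69 to 77 regions, 9 to 10 genes with a region, a density of 11.8 to 13.2, 2 to 3 genes with a summit at their start site (arm was added when replicate 3 was left out), 15 to 19 wider genes, a GC difference of -9.20 to -8.96 and 17 to 18 regions with CAGTGC. Axn had no region when replicate 2 was left out. Leaving out fz, added after the data had been seen, gave 57 regions and a density of 12.1. Joining overlapping entries left 69 regions. With 1 entry per run of overlapping entries, a count also added after the data had been seen, 13 had CAGTGC.

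Depth is unknown, so where a region is missing from a replicate list, absent occupancy cannot be told apart from occupancy that was not called. The strongest merged regions below the IDR list had signals of 69.3 to 97.5 at these genes.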
